A study of Mus musculus with 13 samples.

Results

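A set of 7 interferon-inducible GTPase genes was followed through the response of 4T1 cells to doxorubicin and IL-17A. The members are 3 guanylate-binding proteins (*Gbp2*, *Gbp3*, *Gbp7*), 3 regulatory immunity-related GTPases (*Irgm1*, *Irgm2*, *Igtp*) and 1 effector immunity-related GTPase (*Iigp1*). All 7 were among the 13222 genes of the deposited table, and all 7 were among the 12319 genes with enough reads to be tested. 4T1 is a murine mammary carcinoma cell line of BALB/c origin that serves as a model of triple negative breast cancer, and the 4T1-Thy1.1 cells used here carry a Thy1.1 transgene in every group. Cells in culture wells were left untreated (control, n = 3), given doxorubicin at 200 ng/mL (DOX, n = 4), given recombinant mouse IL-17A at 25 ng/mL (IL-17A, n = 3) or given both agents at those doses (DOX+IL-17A, n = 3), and RNA was taken after 48 hours. DOX is an anthracycline that damages DNA, and IL-17A is a cytokine of T helper 17 and γδ T cells. The labels do not say whether the wells came from separate experiments, so that the p-values measure the spread between these libraries, which may be technical. The comparisons ask what DOX and IL-17A did to these transcripts alone and together.

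Interferons bind receptors whose JAK kinases activate STAT transcription factors, and these act with IRF factors on short DNA elements near the start of responsive genes. Guanylate-binding proteins (GBPs) and immunity-related GTPases (IRGs) are dynamin-like enzymes that assemble on membranes and defend cells against intracellular bacteria and parasites. The IRGs with a GMS sequence in their nucleotide-binding site (Irgm1, Irgm2 and Igtp, also called Irgm3) sit on host membranes and hold the effector IRGs such as Iigp1 in an inactive state, whereas GBPs gather on the vacuoles of pathogens.

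Of the 7 genes, 6 lay on chromosomes 3 and 11. In mm10 (GENCODE M21 models), *Gbp7* (chr3:142530342-142550149), *Gbp3* (chr3:142560026-142573209) and *Gbp2* (chr3:142620602-142638008) lay on the plus strand within the chromosome 3 cluster, which spans 175064 bases and 6 Gbp genes. *Igtp* (chr11:58199556-58207591) and *Irgm2* (chr11:58199618-58222782) overlapped on the plus strand of chromosome 11, and *Irgm1* (chr11:48861968-48871683) lay on the minus strand of the same chromosome. The models of *Igtp* and *Irgm2* shared 162 exonic bases, all of them at least 7812 bases before the end of *Igtp* and 23003 bases before the end of *Irgm2*. Since the libraries were read from the 3' end of transcripts, the windows of 75 bases (the read length) in the last 500 bases of each transcript were compared with all other genes. None of these windows was shared for *Gbp7*, *Igtp*, *Irgm1*, *Irgm2* or *Iigp1*, and 1.29% were shared for *Gbp3* (with *Gbp7*) and 0.822% for *Gbp2* (with *Gbp2b*). *Gbp7* also overlapped the processed pseudogene *Gm43802* over 637 exonic bases on the same strand.

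Letters of the interferon-stimulated response element were present before the RefSeq start of every member with a RefSeq promoter entry. The core, a GAAA followed by 2 bases of any kind and another GAAA, was searched on both strands in the 250 bases before the RefSeq start (GRCm38.p6), and it was found for 6 of 6 members (*Gbp2*, *Gbp3*, *Gbp7*, *Igtp*, *Irgm1*, *Irgm2*) against 3.46% of the 27025 genes with such a window. The core of the gamma-activated site, TTCNNNGAA, which reads the same on either strand and did not overlap the first core, was found for 3 of 6 members (*Gbp7*, *Igtp* and *Irgm2*) against 8.13% of all genes. Stretches of 30 bases that hold a response element core of each member are shown so that the element can be compared between genes. They are written 5' to 3' on the strand of the gene, with the match in capitals. They lie at chr3:142620594-142620623 (*Gbp2*, plus), chr3:142559989-142560018 (*Gbp3*, plus), chr3:142530273-142530302 (*Gbp7*, plus), chr11:48871425-48871454 (*Irgm1*, minus), chr11:58214903-58214932 (*Irgm2*, plus) and chr11:58199512-58199541 (*Igtp*, plus).
Gbp2: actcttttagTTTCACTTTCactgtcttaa
Gbp3: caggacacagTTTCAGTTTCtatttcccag
Gbp7: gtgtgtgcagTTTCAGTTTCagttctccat
Irgm1: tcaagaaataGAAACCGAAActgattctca
Irgm2: tccaggaactGAAACTGAAAgctgttcggg
Igtp: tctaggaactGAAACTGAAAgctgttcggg
The GBPs carried the core on the opposite strand (printed as TTTC repeats) and the IRGs on the strand of the gene. *Igtp* and *Irgm2* held the same core, and their upstream windows were 90.2% identical over 215 aligned bases. The matches ended between 14 bases (*Irgm1*) and 54 bases (*Irgm2*) before the start, and *Gbp3* and *Irgm1* each had a second, overlapping match. For *Gbp3* the match farther from the start is printed (35 bases, the other at 29). For *Irgm1* the nearer one is printed (14 bases, the other at 20). The response element core was also found for 5 of 9 other interferon-inducible GTPases and 10 of 22 other interferon-stimulated genes with a window. Among dynamin-family GTPases not known as interferon-inducible it was found for 0 of 13. The gamma-activated site core was found for 4 of 9, 5 of 22 and 0 of 13 genes of these lists. A match of letters is not a binding site, and the RefSeq starts of *Gbp2*, *Gbp3*, *Irgm1* and *Irgm2* lie inside the longer GENCODE models. The printed matches of *Gbp2*, *Irgm1* and *Irgm2* lie within those models and not upstream of them.

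**Figure D1:**
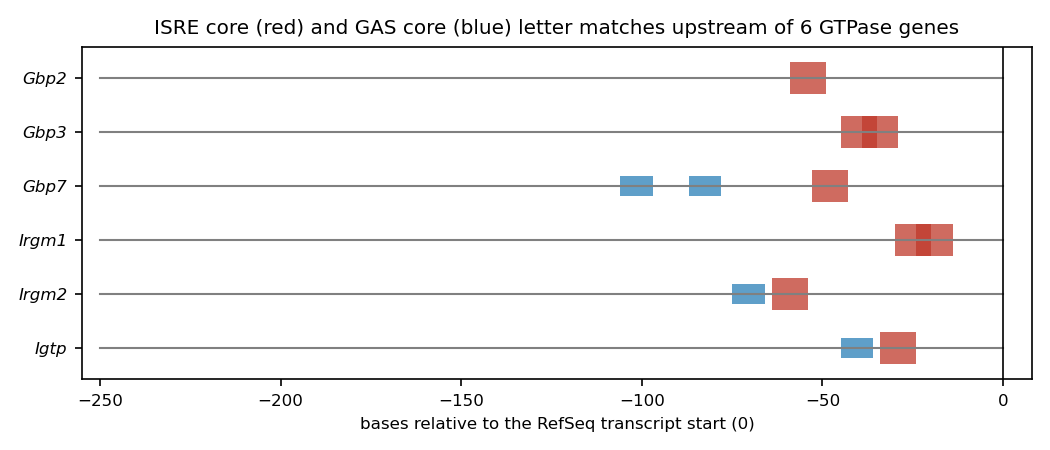
Positions of letter matches before the RefSeq start of the 6 GTPase genes with a RefSeq promoter entry. The x axis gives bases relative to that start, with a row for each gene. Red boxes are the response element core and blue boxes the gamma-activated site core; every red box ends within 54 bases of the start, and *Gbp7* has 2 blue boxes.

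The 13 libraries held between 4445592 and 16930600 reads on listed genes, and values are given as deposited, as reads divided by a library size scaled with the trimmed mean of M values (TMM), on the scale of CPM. A floor of 3 reads corresponded to values between 0.183 and 0.613 depending on the library. The epithelial markers were all detected, and their summed value was 2020.2 to 2433 in control, 1781 to 2172 in IL-17A, 1040.4 to 1162 in DOX and 925 to 1181 in DOX+IL-17A. *Thy1* was detected in every library, at 63.6 to 179. Control replicate 1 stood apart from all other libraries on the second principal component, and DOX replicate 1 carried skeletal muscle transcripts (summed value 208 over 6 genes against 3.58 to 34.5 elsewhere) and red blood cell transcripts (66.5 against at most 14.4). Of 12 leukocyte markers 5 were listed, with summed values of 19.8 to 26.4 in control, 17.6 to 26.7 in IL-17A, 34.7 to 67.8 in DOX and 39.5 to 63.2 in DOX+IL-17A, and no endothelial marker of 3 was listed. Leukocyte transcripts thus moved with DOX, and their part in the results on DOX was not tested. In bulk RNA, a change in the number of cells that express a gene and a change in RNA per cell cannot be told apart.

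All 7 GTPase transcripts were up-regulated by DOX relative to untreated controls, by 2.63-fold for *Gbp2* up to 14.9-fold for *Gbp3*. The largest ratios were those of *Gbp3*, *Irgm2* and *Iigp1*, and the smallest those of *Gbp2* and *Irgm1*. The median log2 fold change of the 7 genes was 2.64 against 0.09 for all genes tested. With limma on log2(value + 1), 7 of 7 passed an adjusted p of 0.05 (Benjamini-Hochberg over all genes tested) and a fold of 2, against 9.15% of all genes tested in this direction. No DOX library overlapped a control library for 7 of 7 members, against 18.5% of all genes.

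*Gbp2*, which is prenylated and coats the vacuoles of intracellular parasites, had the highest level of the 7 in every control library. Its normalised value was 40.6, 30.1 and 32.2 in control replicates 1, 3 and 5 and 77.0, 72.8, 112 and 99.4 in DOX replicates 1 to 4. The means were 34.3 ± 5.55 (SD, n = 3) and 90.3 ± 18.6 (SD, n = 4), a log2 fold change of 1.36 (SE 0.25, limma adjusted p = 0.0019). Every DOX library thus lay above the highest control library, although the fold was the smallest of the 7.

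*Gbp3*, another GBP of the chromosome 3 cluster, went from low to the highest value of the group. Control replicates 1, 3 and 5 were at 12.5, 13.3 and 8.96, whereas DOX replicates 1 to 4 were at 102, 112, 246 and 232. The lowest DOX library was several times above the highest control library, with means of 11.6 ± 2.33 (SD, n = 3) and 173 ± 76.5 (SD, n = 4) and a log2 fold change of 3.69 (SE 0.34, limma adjusted p = 8.4e-06).

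*Gbp7*, the third GBP, reached a similar level from a higher base. It was at 27.2, 24.2 and 22.9 in control replicates 1, 3 and 5 and at 108, 113, 233 and 226 in DOX replicates 1 to 4. The groups did not overlap, and the log2 fold change was 2.64 (SE 0.27, limma adjusted p = 2.4e-05), a 6.86-fold ratio of means. In the control libraries *Gbp7* lay above *Gbp3* in each of the 3, whereas the 2 genes had nearly equal means with DOX, at 173 for *Gbp3* and 169.9 for *Gbp7*. A read in these libraries marks the end of a transcript, and so the values were not divided by transcript length.

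Among the regulatory IRGs, *Irgm1*, which is needed for resistance to mycobacteria in mice, moved least. It was at 7.78, 5.42 and 6.01 in control replicates 1, 3 and 5 and at 22.7, 26.2, 20.97 and 21.9 in DOX replicates 1 to 4. The DOX libraries were close together, and the log2 fold change was 1.70 (SE 0.31, limma adjusted p = 0.0017).

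*Irgm2* rose the most on the log2 scale and was also the least evenly measured. Its control values were 0.846, 10.4 and 6.60 in replicates 1, 3 and 5, of which the first rested on 5 reads, and its DOX values were 55.3, 90.1, 94.8 and 103 in replicates 1 to 4. The log2 fold change was 3.96 (SE 0.66, limma adjusted p = 0.00092), with the widest interval of the 7 genes, from 2.56 to 5.37. Without control replicate 1 it was lower, at 3.18.

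*Igtp*, the third regulatory IRG, was at 19.5, 9.92 and 15.6 in control replicates 1, 3 and 5 and at 60.4, 59.7, 121 and 128 in DOX replicates 1 to 4. All DOX libraries lay above all control libraries, and the log2 fold change was 2.50 (SE 0.32, limma adjusted p = 0.00015). This gene and *Irgm2* share the response element core shown above, and their ratios of DOX to control means were 6.17 and 14.4.

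*Iigp1*, the effector IRG that the regulators hold inactive, had the lowest mean of the 7 in the controls. It was at 2.88, 1.70 and 3.65 in control replicates 1, 3 and 5 and at 20.3, 22.4, 52.7 and 51.5 in DOX replicates 1 to 4. The groups were far apart, with a 13.4-fold ratio of means and a log2 fold change of 3.24 (SE 0.46, limma adjusted p = 0.00028).

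**Figure D2:**
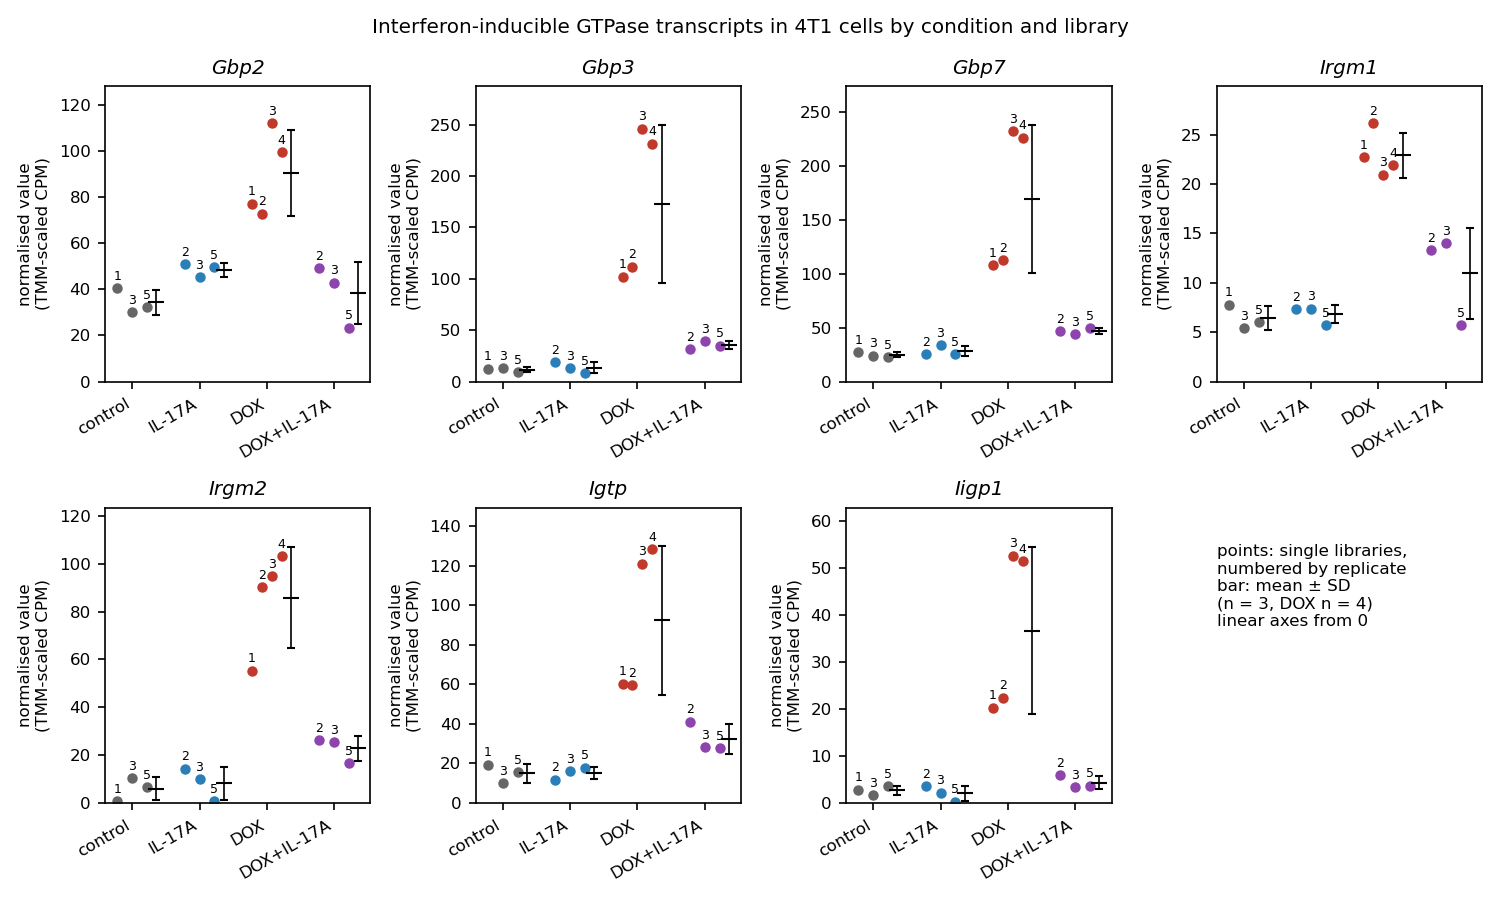
Normalised value (TMM-scaled CPM, linear axes from 0) of the 7 GTPase genes in each of the 13 libraries, with points numbered by replicate and the mean ± SD of each condition (n = 3, DOX n = 4). The DOX libraries are the highest of each gene, and the DOX+IL-17A libraries lie below them for all 7 genes.

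The 4 DOX libraries differed from each other for most members. Replicates 3 and 4 were the highest for 6 of 7 genes, all but *Irgm1*, whereas both were the highest for 24.8% of all genes tested. The same order was present for 15 of 18 other interferon-inducible GTPases and 23 of 26 other interferon-stimulated genes. From lowest to highest DOX library the value differed 2.599-fold for *Iigp1*, 2.42-fold for *Gbp3*, 2.15-fold for *Gbp7* and *Igtp*, 1.87-fold for *Irgm2*, 1.54-fold for *Gbp2* and 1.25-fold for *Irgm1*. DOX replicate 1, the library with muscle and blood transcripts, was lower than replicates 3 and 4 for these 6 genes, and replicate 2 was at about the level of replicate 1 for all but *Irgm2*. Markers of other cell types split the DOX libraries the opposite way. The summed leukocyte markers were at 64.2 and 67.8 in replicates 1 and 2 and at 34.7 and 38.0 in replicates 3 and 4, and the summed skeletal muscle markers at 208 and 24.3 in replicates 1 and 2 and at 5.31 and 3.58 in replicates 3 and 4. Their part in the spread of the GTPase values was not tested. The split of the libraries was seen in the data and corresponds to no label.

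The summed value of the 7 genes was 101 ± 9.16 in control (SD, n = 3), 671 ± 232 in DOX (SD, n = 4), 191 ± 26.7 in DOX+IL-17A (SD, n = 3) and 123 ± 12.9 in IL-17A (SD, n = 3). Since the genes rose unequally, the make-up of the sum changed with DOX. *Gbp2* made up 33.9% ± 2.41 of it in control and 14.1% ± 2.51 in DOX, whereas *Gbp3* went from 11.5% ± 2.35 to 25.1% ± 2.75 (SD, n = 3 and 4). *Irgm2* went from 6.20% ± 5.13 to 13.3% ± 3.30, with a wide spread of the control libraries. *Gbp7* held a nearly constant share, with 24.6% ± 0.78 in control and 24.9% ± 1.76 in DOX.

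**Figure D3:**
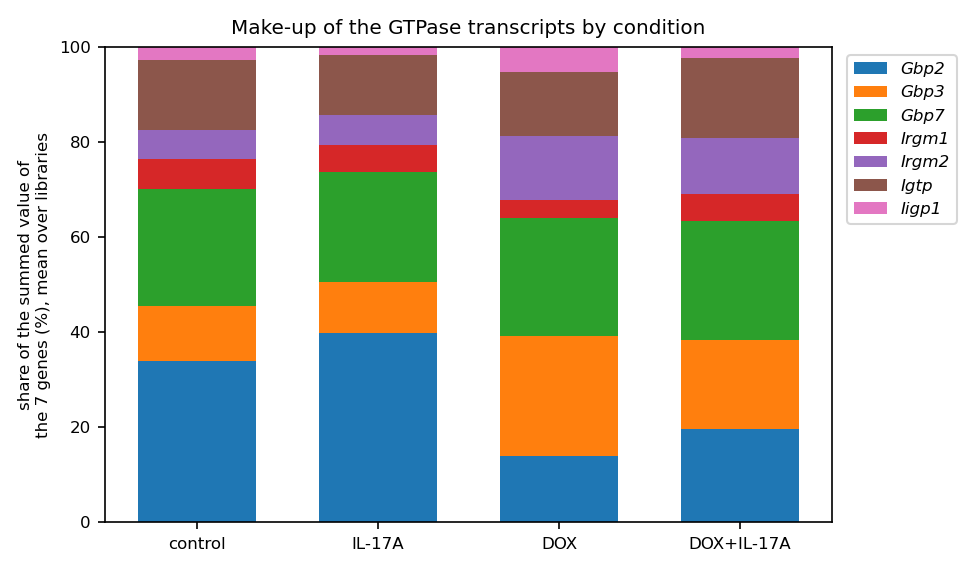
Share of each GTPase gene in the summed normalised value of the 7 genes (%, mean over the 3 or 4 libraries of a condition), as stacked bars for the 4 conditions. *Gbp2* is the largest part in control and IL-17A, and *Gbp3* and *Gbp7* are the largest parts in DOX, at 25.1% and 24.9%.

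IL-17A given together with DOX was accompanied by lower levels of all 7 transcripts than DOX alone. The ratio of means ran from 11.8% of the DOX level for *Iigp1* to 47.9% for *Irgm1*. No DOX+IL-17A library reached the lowest DOX library for 7 of 7 members, against 5.61% of all genes. With limma, 4 of 7 were called lower (*Gbp2*, *Gbp3*, *Gbp7* and *Iigp1*), against 0.325% of all genes tested, and 0 of 7 were called higher, against 0.114%. The median log2 fold change was -1.74 for the 7 genes and -0.03 for all genes tested.

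*Iigp1* had the largest difference. It was at 5.93, 3.38 and 3.68 in DOX+IL-17A replicates 2, 3 and 5, far below the DOX libraries, of which the lowest was at 20.3. The log2 fold change was -2.72 (SE 0.46, limma adjusted p = 0.013). Of the DOX increase of the mean over control, 4.66% was left in DOX+IL-17A, with a range of 2.31% to 6.07% when a library was left out. The difference that remained from control has an interval that includes 0.

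*Gbp3* was at 31.5, 39.2 and 34.96 in DOX+IL-17A replicates 2, 3 and 5, and *Gbp7* at 47.0, 44.1 and 49.7. These libraries were close together and lay below every DOX library, of which the lowest were at 102 and 108. The log2 fold change was -2.16 for *Gbp3* (SE 0.34, limma adjusted p = 0.0090) and -1.74 for *Gbp7* (SE 0.27, limma adjusted p = 0.0090). Of the DOX increase over control, 14.6% was left for *Gbp3* and 15.3% for *Gbp7*, with ranges of 12.8% to 17.3% and 13.4% to 17.8% when a library was left out.

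*Gbp2* was at 49.1, 42.9 and 23.3 in DOX+IL-17A replicates 2, 3 and 5, so that replicate 5 was below all control libraries. The log2 fold change was -1.26 (SE 0.25, limma adjusted p = 0.041), close to the threshold. This call was kept in 3 of the 13 fits that leave out a library. Those of *Gbp3*, *Gbp7* and *Iigp1* were kept in 9, 10 and 9. The *Gbp2* call was also lost with edgeR, scaling by library size, a pseudocount of 0.1 and the replicate block.

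The 3 regulatory IRGs were also lower, but none passed the main limma test. In limma on the DOX and DOX+IL-17A libraries alone, *Igtp* and *Irgm2* (adjusted p = 0.0026) were called lower. DESeq2 called *Igtp* lower, whereas voom and edgeR called none of the 3. *Igtp* was at 41.1, 28.2 and 27.8 in DOX+IL-17A replicates 2, 3 and 5, with a log2 fold change of -1.41 (limma adjusted p = 0.088). *Irgm2* was at 26.4, 25.4 and 16.8, with a log2 fold change of -1.85 (adjusted p = 0.49, limma), and *Irgm1* was at 13.3, 14.0 and 5.68, with a log2 fold change of -1.08 (adjusted p = 0.25, limma). Each of these libraries lay below the lowest DOX library of its gene, and the unadjusted p was under 0.05 for 7 of 7 members, against 6.35% of all genes.

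These calls depended on single libraries. In limma without DOX replicate 4, without DOX+IL-17A replicate 3 and without DOX+IL-17A replicate 5, 0 of 7 passed, with an unadjusted p under 0.05 for 7, 7 and 6 of 7 members. Without DOX replicate 3 and without DOX+IL-17A replicate 2, 2 of 7 passed. The direction was the same in all of these fits, and leaving out control replicate 1 and DOX replicate 1 together gave 5 of 7. The leukocyte markers, with summed values of 34.7 to 67.8 in DOX and 39.5 to 63.2 in DOX+IL-17A, overlapped between these groups, but some single markers did not. *Csf1r* was at 16.6 to 35.0 in DOX and 2.48 to 9.55 in DOX+IL-17A and *Cd68* at 9.09 to 17.96 and 6.16 to 6.87, whereas *Ptprc* was at 0.644 to 1.42 and 2.45 to 3.57. The mean of *Cd14* was 13.5 ± 7.92 in DOX (SD, n = 4) and 33.3 ± 12.4 in DOX+IL-17A (SD, n = 3). The part of these markers in the lower GTPase values was not tested.

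**Figure D4:**
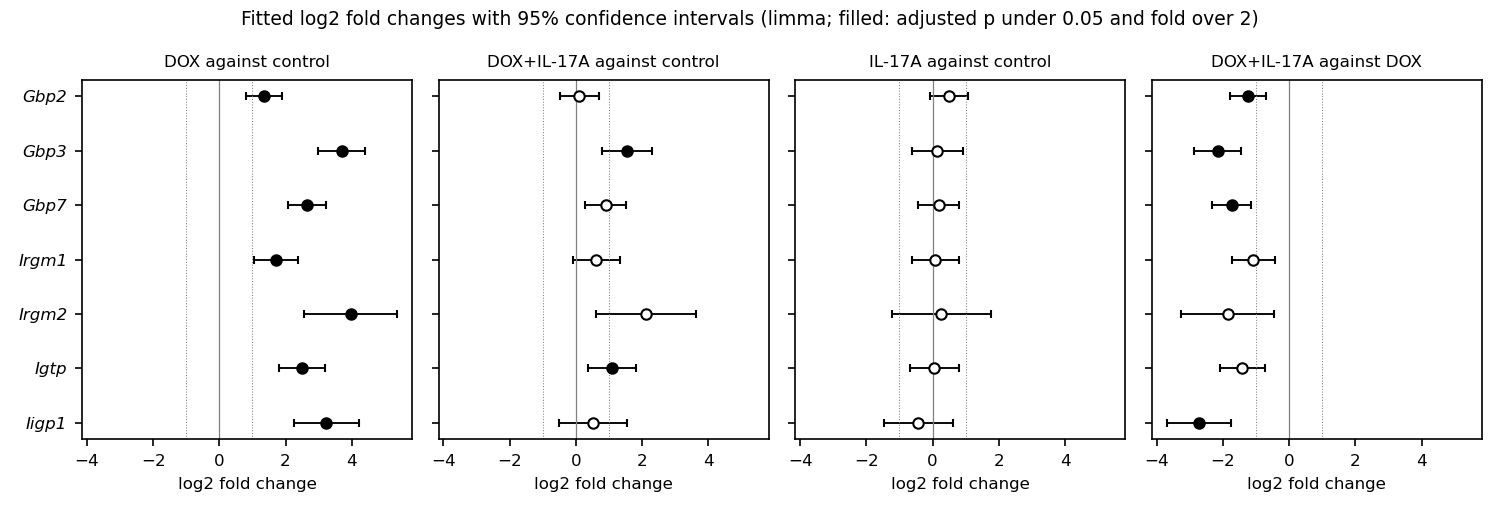
Fitted log2 fold change (x axis, log2(value + 1) scale) of the 7 GTPase genes with its 95% confidence interval in 4 comparisons, where filled points passed an adjusted p of 0.05 and a fold of 2 and dotted lines mark a fold of 2. All 7 points are filled in DOX against control and none in IL-17A against control, and all 7 lie to the left of 0 in DOX+IL-17A against DOX.

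Relative to untreated controls, DOX+IL-17A raised *Gbp3* and *Igtp* past both thresholds. *Gbp3* had a mean of 35.2 ± 3.87 against 11.6 ± 2.33 (SD, n = 3 each), with a log2 fold change of 1.54 (limma adjusted p = 0.0094). *Igtp* had a mean of 32.4 ± 7.56 against 15.0 ± 4.79 (SD, n = 3 each), with a log2 fold change of 1.09 (limma adjusted p = 0.041). These 2 of 7 members compare with 6.95% of all genes tested that were called higher.

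The remaining members fell between these calls and no detectable difference. *Gbp7* passed the adjusted p but not the fold of 2, with a log2 fold change of 0.90 (limma adjusted p = 0.044), and *Irgm2* missed the adjusted p at a log2 fold change of 2.11 (adjusted p = 0.050472, limma). The DOX+IL-17A libraries lay above every control library for *Gbp3*, *Gbp7*, *Igtp* and *Irgm2* (4 of 7, against 15.6% of all genes). *Irgm1* and *Iigp1* had log2 fold changes of 0.62 and 0.51 with 95% intervals of -0.09 to 1.33 and -0.53 to 1.55. *Gbp2* was at the level of the controls, with means of 38.4 ± 13.5 and 34.3 ± 5.55 and an interval of -0.47 to 0.68. The call for *Gbp3* was kept without any single library, whereas the count of members called ran from 1 to 3, and it was 1 without control replicate 5, without IL-17A replicate 3 and without each of the DOX+IL-17A replicates.

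IL-17A alone was not accompanied by a detectable change of any member. With limma 0 of 7 were called, against 0.00812% of all genes called higher and 0% called lower, and 0 of 7 had an unadjusted p under 0.05, against 3.08% of all genes. Voom with limma, edgeR and DESeq2 also called 0 of 7. The 95% intervals of the log2 fold change lay between -0.68 and 1.08 for *Gbp2*, *Gbp3*, *Gbp7*, *Irgm1* and *Igtp*, and were wider for *Irgm2* (-1.24 to 1.76) and *Iigp1* (-1.48 to 0.60).

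*Gbp2* was the only member whose IL-17A libraries did not overlap the controls, which 3.17% of all genes did in this direction. It was at 50.9, 45.1 and 49.5 in IL-17A replicates 2, 3 and 5 against at most 40.6 in control, with a log2 fold change of 0.50 (adjusted p = 0.96, limma). *Gbp3* was at 18.9, 12.9 and 8.37, *Gbp7* at 25.7, 34.0 and 25.5 and *Igtp* at 11.8, 16.0 and 17.97, in each case overlapping the controls. *Irgm1* was at 7.32, 7.39 and 5.74, within the range of the controls. IL-17A replicate 5 stood low for *Irgm2*, with 0.656 (8 reads) beside 14.3 and 9.90, and for *Iigp1*, with 0.328 (4 reads) beside 3.60 and 2.20. Low values of *Irgm2* therefore appeared in 1 control and 1 IL-17A library, while all other libraries were at 6.60 or above.

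Set against IL-17A alone, the addition of DOX raised *Gbp3* past the thresholds, with a log2 fold change of 1.39 (limma adjusted p = 0.019). That is 1 of 7 members, against 4.92% of all genes tested. *Irgm2* (1.85, adjusted p = 0.097), *Igtp* (1.03, adjusted p = 0.060) and *Gbp7* (0.72, adjusted p = 0.12) missed the threshold in limma, although with *Gbp3* they made up the 4 of 7 members whose groups did not overlap, against 16.4% of all genes. *Iigp1* and *Irgm1* overlapped, and *Gbp2* was lower in DOX+IL-17A, with a mean of 38.4 against 48.5 and an interval of -0.97 to 0.19 on the log2 scale. The call for *Gbp3* was lost without DOX+IL-17A replicate 3, IL-17A replicate 3 or IL-17A replicate 5 (0 of 7 members), and the count rose to 3 without control replicate 1 and to 2 without control replicate 3 or IL-17A replicate 2.

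The effect of IL-17A in the presence of DOX minus that in its absence was negative for all 7 genes. This difference ran on the log2 scale from -2.30 for *Gbp3* to -1.17 for *Irgm1*, with a median of -1.92 against -0.06 for all genes tested. None passed the adjusted p in limma, where 0% of all genes did. *Gbp2* (-1.75), *Gbp3* and *Gbp7* (-1.92) came closest, each with an adjusted p of 0.25. The unadjusted p was under 0.05 for 7 of 7 members against 4.51% of all genes, and DESeq2 called these 3 members among 18 genes in all.

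Ordered by mean level, DOX came first for all 7 genes. DOX+IL-17A came second for 6 of them, without overlap with DOX, followed by IL-17A and control, which overlapped each other for all of these 6. DOX+IL-17A overlapped the next group in this order for *Irgm1* and *Iigp1*. For *Gbp2* the order was DOX, IL-17A, DOX+IL-17A and control, and the last 3 did not differ beyond their spread except that IL-17A did not overlap control. For *Iigp1* control lay above IL-17A, at 2.74 ± 0.98 and 2.04 ± 1.64 (SD, n = 3 each).

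The other genes of the pathway were grouped by role. Of 18 other interferon-inducible GTPases tested, 16 rose with DOX (median log2 fold change 2.18), against 9.15% of all genes. In DOX+IL-17A against DOX 5 were called lower (median of the 18 genes -1.49), against 0.325% of all genes. They included *Mx2*, a dynamin-like antiviral GTPase (3.73 with DOX and -2.03 in DOX+IL-17A against DOX), *Gbp4* (3.27 and -1.74), *Gbp2b* (1.96 and -1.51), *Ifi47* (1.74 and -1.62) and *Gm12250* (2.24 and -2.38), all with a limma adjusted p of at most 0.041. The 5 lower calls were kept, in this order, in 4, 12, 7, 9 and 8 of the 13 fits that leave out a library. *Gm12250* rested on 0 to 4 reads in DOX+IL-17A and 2 to 6 in control. Its lower call was lost with voom, edgeR, a pseudocount of 0.1 and the replicate block. *Gbp6*, *Tgtp1* and *Tgtp2* rose by 3.59, 3.49 and 3.48 on the log2 scale, but 85.1%, 76.7% and 68.4% of the windows near their ends are shared with other genes, so that their own values are uncertain. In the same list 100% were shared for *Gbp10* and *Gvin1*, 78.6% for *9930111J21Rik1* and 60.9% for *9930111J21Rik2*. The counts and medians of these GTPases therefore do not rest on 18 separate measurements. Of 26 other interferon-stimulated genes, 25 rose with DOX (median 2.26) and 13 were lower with IL-17A added (median -1.45), against the same 9.15% and 0.325%. When a library was left out, the counts called lower by limma ran from 0 to 9 of 18 and from 0 to 17 of 26, and both were 0 without DOX+IL-17A replicate 3, where the unadjusted p was under 0.05 for 15 and 22. They were 1 and 3 without DOX replicate 3, 1 and 2 without DOX replicate 4, 1 and 1 without DOX+IL-17A replicate 5, and 2 and 6 without DOX+IL-17A replicate 2. Of the 18 GTPases 9 were called lower without control replicate 1 and 3 without IL-17A replicate 2, and of the 26 genes 8, 8, 7 and 8 were called lower without control replicate 5 and without IL-17A replicates 2, 3 and 5.

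Signalling genes upstream of the GTPases moved in part. Among the 9 transcription factors tested, *Irf7*, the IRF of the interferon amplification loop, rose with DOX (3.20) and was lower in DOX+IL-17A than in DOX (-1.88). *Stat2*, a subunit of the factor that binds the response element, did likewise (1.83 and -1.33). Of all genes tested, 9.15% were called higher and 0.325% lower in these 2 comparisons. Of 9 receptors and kinases, *Ifngr2*, a chain of the interferon gamma receptor, rose (1.28, limma adjusted p = 0.048), with control libraries at 5.08, 29.5 and 25.5, and 0 were lower or higher in DOX+IL-17A than in DOX, with an unadjusted p under 0.05 for 2. Of 5 feedback genes tested, *Usp18*, which restrains the type I receptor, rose (2.92) and was lower with IL-17A added (-1.74), whereas *Socs1*, which restrains JAK kinases, rose (2.10) and was at -0.22 with IL-17A added (adjusted p = 0.998, limma). The call for *Ifngr2* was kept in 3 of the 13 fits that leave out a library and in 3 of 10 other alternatives, and among the fits that lost it were those without control replicate 1 and without each DOX replicate. The calls for *Irf7*, *Stat2* and *Usp18* in DOX+IL-17A against DOX were kept in 8, 6 and 8 of the 13 fits that leave out a library, and all 3 were lost without DOX replicate 3, DOX replicate 4, DOX+IL-17A replicate 3 or DOX+IL-17A replicate 5. Those of *Irf7* and *Usp18* were also lost without DOX+IL-17A replicate 2, and that of *Stat2* without DOX replicate 1, IL-17A replicate 2 or IL-17A replicate 3. Transcripts of the 7 interferon ligand genes considered were not analysed here.

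Partners of the GTPases in the cell were less uniform. The list of the ATG8 conjugation machinery, which helps GBPs and IRGs find their membranes, also held genes outside it such as *Trim21*. With DOX 3 of its 15 genes were higher (*Trim21* 1.64, *Atg3* 1.43 and *Atg16l1* 1.26), against 9.15% of all genes. A further 1 was lower (*Gabarap*, -1.12), which 6.18% of all genes were. In DOX+IL-17A against DOX 0 of 15 were called, and 1 had an unadjusted p under 0.05. Of 9 caspase and inflammasome genes, *Zbp1*, a sensor of nucleic acids, rose by 4.20 and was lower by -1.70 with IL-17A added, *Casp4*, which binds bacterial lipopolysaccharide, rose by 2.29, and *Il1b* was lower with DOX (-1.21). Of 8 genes that attach or process prenyl groups, as some GBPs carry, 0 were called and 0 had an unadjusted p under 0.05 with DOX. Among 13 dynamin-family GTPases not known as interferon-inducible, 0 rose with DOX and *Atl1* was lower (-1.18, limma adjusted p = 0.031), with a median of -0.26. The calls with DOX for *Gabarap*, *Atl1*, *Il1b* and *Atg16l1* were kept in 2, 9, 10 and 9 of the 13 fits that leave out a library and in 3, 7, 9 and 7 of 10 other alternatives, and all 4 were lost without control replicate 1, DOX replicate 2 or DOX replicate 3. The lower call for *Zbp1* was lost without DOX replicate 3, DOX replicate 4 or any of the DOX+IL-17A replicates. In IL-17A against control no gene of these lists was called by limma.

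**Figure D5:**
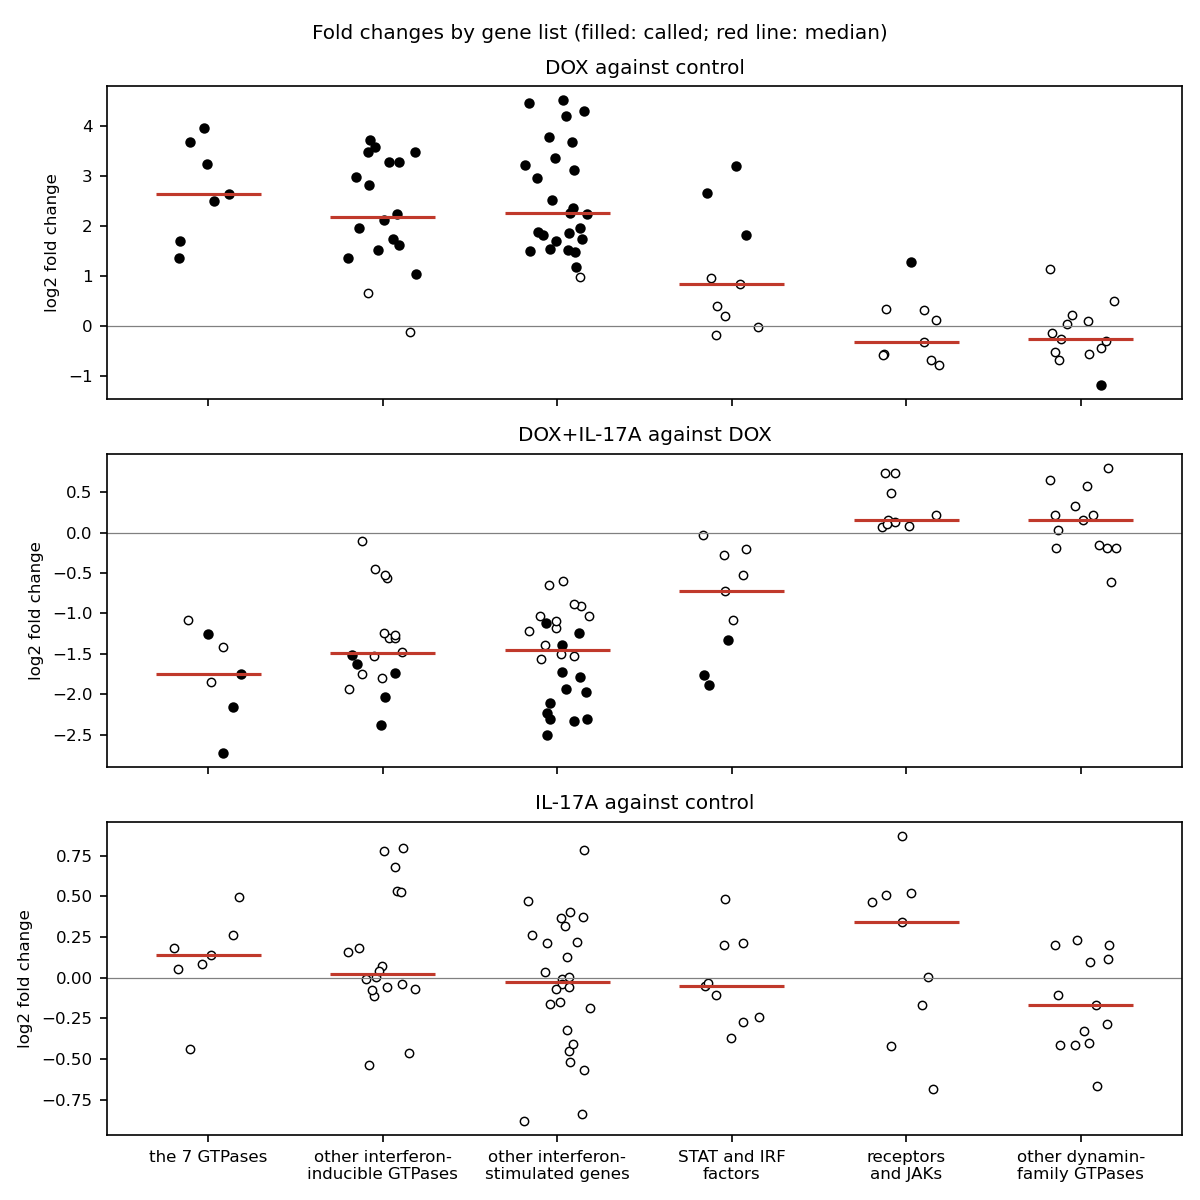
Fitted log2 fold changes (y axis, log2(value + 1) scale) of the 7 GTPases and of 5 other gene lists in 3 comparisons, with a point for each gene tested, filled where called, and a red line at the list's median. The medians of the 7 GTPases, the other interferon-inducible GTPases and the other interferon-stimulated genes are 2.64, 2.18 and 2.26 in DOX against control, whereas that of the dynamin family is -0.26.

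Of the 6 genes outside the set with the most similar profile over the 13 libraries, *Xaf1*, *Gbp5* and *Oasl2* were also in the lists above. Likeness was the root mean square difference, on the log2 scale, between a gene's deviations from its own mean and the mean deviations of the 7 members. The closest were *Xaf1* (0.27), *Phf11d* (0.30), *Cd274*, which encodes PD-L1 (0.35), *Gbp5* (0.36), *Oasl2* (0.37) and *Adh6b*, which belongs to the alcohol dehydrogenase family (0.38). With a pseudocount of 0.1, *Xaf1*, *Phf11d* and *Oasl2* stayed among the closest 6, and *Cd274*, *Gbp5* and *Adh6b* did not. Measured the same way, the members themselves ranged from 0.24 for *Gbp7*, which followed the mean most closely, to 0.75 for *Gbp2* and 0.93 for *Irgm2*. *Cd274* had means of 1.55 in control, 25.0 in DOX and 6.70 in DOX+IL-17A, and *Gbp5* of 0.479, 10.9 and 2.96.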

How the data were processed

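Bulk RNA of 4T1-Thy1.1 cells was sequenced in 13 libraries of 4 conditions. According to the methods and labels, the authors made 3' libraries (QuantSeq), read single ends of 75 bases, mapped them to mm10 with STAR (version 2.6), counted reads per gene with featureCounts (Rsubread version 1.30.5) and applied TMM normalisation. The submitters' processing notes also name FastQC and Trimmomatic. The annotation and strand setting of the counting are not given in the sources used here. The deposited values are a normalised signal per gene and library on the scale of CPM with a TMM-scaled library size. The table held 13223 entries, of which 1 was an identical repeat. Within each library 100% of values were whole multiples of 1 read (tolerance 0.01), and the whole reads were recovered for filtering and for the count tests. The floor of 3 reads covers counting error only, whereas the intervals of fold changes are from limma and rest on the spread between libraries.

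Genes were kept by filterByExpr of edgeR (4.0.16) on the recovered reads, which left 12319. The test was limma (3.58.1, R 4.3.3) (trend option) on log2(value + 1). The groups were the only term, all 13 libraries shared an estimate of the spread, and p was adjusted by Benjamini-Hochberg over all genes tested. Calls needed both adjusted p under 0.05 and fold over 2, except that the IL-17A effect with DOX minus that without needed the adjusted p alone. Fold changes are on the log2(value + 1) scale and understate the change of low genes. Ratios of means are of the deposited values. Fits were tested on simulated data. Alternatives were scaling by library size, voom, edgeR quasi-likelihood, DESeq2 (1.42.0), other filters, a pseudocount of 0.1, only the groups compared, a replicate block, and leaving out libraries.

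The members and lists were chosen with earlier results of these data known. Named genes were the 7 members, up to 4 genes of a list with the largest change with DOX, genes of a list called in DOX+IL-17A against DOX, and the 6 genes most like the members. Promoter sequences are from RefSeq (GRCm38.p6), which gave 6 of 7 members a window. *Iigp1* was not among them. Gene positions are from GENCODE M21. Counts of markers are over lists of typical genes of each cell type. Liver markers reached a summed value of at most 2.25, and 4 of 4 fibroblast markers were listed, with summed values of 23.8 to 97.8. The same numbers in several conditions were not taken as pairs, since the labels do not say what they share. An item of the gene lists is not reported here.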

Additional observations from a re-analysis of the deposited data

How the results depend on the processing

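With DOX against control, 7 of 7 members were called in each alternative, and the 168 member values kept direction and call. Members called in DOX+IL-17A against DOX numbered 2 with a pseudocount of 0.1, 3 with edgeR or scaling by library size, 4 with voom, 5 with DESeq2, 6 with only the groups compared, and 0 to 5 when a library was left out. In DOX+IL-17A against control they numbered 4 after scaling by library size, 1 with voom and 1 with only the groups compared, and 1 to 3 when a library was left out. In DOX+IL-17A against IL-17A they numbered 2 after scaling by library size, 2 with DESeq2, 3 without control replicate 1 and DOX replicate 1, and 0 to 3 when a library was left out. For the IL-17A effect with DOX minus that without, DESeq2 called 3. The cause of these shifts was not tested, and the fits that leave some libraries out also rest on fewer libraries.

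The replicate block, which treats equal replicate numbers as pairs, gave 0 members called in DOX+IL-17A against DOX (unadjusted p under 0.05 for 7 of 7), 1 in DOX+IL-17A against control and 2 in DOX+IL-17A against IL-17A. Correlations of deviations between same-numbered libraries of different groups had a mean of 0.15 (-0.18 to 0.49, 13 pairs). Between libraries of different number the mean was -0.04 (-0.56 to 0.47, 50 pairs). Of 13 libraries 7 were closest to their own number. The same-numbered libraries were thus more alike on average, with overlapping ranges. Whether equal numbers share a batch is not in the labels and was not tested.

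Signs turned only for small differences. *Gbp2* in DOX+IL-17A against control ran from -0.10 to 0.42 when a library was left out, being -0.10 without DOX+IL-17A replicate 2 and -0.0065 without DOX+IL-17A replicate 3. In IL-17A against control, *Irgm2* was -0.61 with voom, -0.38 with the replicate block and -0.52 without control replicate 1 and DOX replicate 1. When a library was left out it ran from -0.52 to 1.25, *Igtp* from -0.20 to 0.26, *Irgm1* from -0.013 to 0.21, *Gbp3* from -0.13 to 0.42 and *Iigp1* from -0.83 to 0.071. In DOX+IL-17A against DOX 134 of 168 member values kept their call, and 29 lost it.

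After scaling by library size the all-gene median of the log2 fold change went from 0.09 to 0.24 in DOX against control, from 0.04 to 0.20 in DOX+IL-17A against control and from 0.02 to 0.22 in DOX+IL-17A against IL-17A. The share of calls that were higher moved from 59.7% to 75.6%, from 53.9% to 70.4% and from 50% to 72.7%. Genes called lower in DOX+IL-17A against DOX numbered 40, or 71 with DESeq2, 28 with edgeR, 20 with a pseudocount of 0.1 and 8 with the replicate block. Values that rest on 4 to 8 reads, as for *Irgm2* and *Iigp1* in single libraries, carry a large counting error. These libraries were control replicate 1 and IL-17A replicate 5, with 6583757 and 13771197 reads on listed genes against a median of 9077387.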
